A study of Tupaia belangeri chinensis with 12 samples.

Results

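The genes described here are those of the motile cilium axoneme, the microtubule core of the beating cilium, across the developing cortical wall of fetal Chinese tree shrews (Tupaia belangeri chinensis), in 4 layers. Members were chosen by name, with earlier results of these data known: axonemal dynein heavy and intermediate chains (DNAH and DNAI symbols), dynein assembly factors (DNAAF), radial spoke proteins (RSPH), tektins (TEKT), cilia- and flagella-associated proteins (CFAP), subunits of the nexin-dynein regulatory complex (DRC), and FOXJ1, SPAG6, SPAG16, SPAG17, CCDC39, CCDC40 and CAPSL. The rule gave 71 genes of 81418 gene IDs in the deposited tables. A further 8 entries whose symbols end in "li" and a number, called li entries below, were left out. What this mark means is not stated in the sources used here. The study concerns cortical folding, as the series title states.

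Bulk RNA-seq was made from laser-captured tissue at embryonic day 37. From the ventricle outwards the layers were VZ, the ventricular zone; ISVZ and OSVZ, the inner and outer parts of the subventricular zone; and CP, the cortical plate. Each gave 3 libraries, 12 in all. No treatment or genotype is named for any of them, so position in the cortical wall is the contrast. VZ lines the ventricle, and CP holds the postmitotic neurons. Whether separate animals lie behind the 3 libraries of a layer is not stated in the labels, and the p-values then measure only the spread between these libraries, which may be technical.

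A motile cilium beats because dynein motors, anchored in rows on outer microtubule doublets, slide neighbouring doublets past each other. Radial spokes and the central apparatus coordinate the motors, nexin-dynein links limit the sliding, and tektins and other proteins lining the doublets stabilise them. The dyneins are assembled in the cytoplasm by dedicated factors before they are carried into the cilium, and FOXJ1 is the transcription factor best known for switching on the genes of motile cilia. In the brain, motile cilia are known from ependymal cells, which line the ventricles, and from the choroid plexus epithelium; radial glia, the stem cells of VZ, carry a primary cilium, which lacks these motors.

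Levels are FPKM (fragments per transcript length and per total mapped fragments), scaled between libraries, so that levels may be set against each other across genes as well as layers. The layer labels were checked first. PAX6, a radial glial transcription factor, averaged 28.6 in VZ, 19.6 in ISVZ, 15.4 in OSVZ and 0.434 in CP, while MEF2C, a neuronal transcription factor, averaged 7.80, 10.8, 13.5 and 148 in the same order. EOMES, which marks intermediate progenitors, averaged 57.3, 54.4, 44.1 and 0.231, and MKI67, expressed in dividing cells, 37.0, 32.4, 19.2 and 0.455. All 11 tested genes of a radial glia list were higher in VZ than in the mean of the other layers and 11 of 12 of a projection neuron list were lower. The median relative half-width of the deposited confidence bounds, at 10 to 100 FPKM, ran between 5.33% in OSVZ 3 and 7.89% in VZ 1, so no library was measured far less precisely than the others.

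The VZ libraries differ among themselves in choroid plexus RNA, which bears on every comparison that follows. TTR, the transthyretin gene and the most abundant choroid plexus transcript, stood at 529, 2514 and 33.8 FPKM in VZ 1, VZ 2 and VZ 3, against at most 48.4 in ISVZ and at most 5.53 in OSVZ and CP. CLIC6 was at 8.85, 49.2 and 0.357 in the VZ libraries and FOLR1 at 8.92, 69.7 and 2.05, so VZ 2 was highest and VZ 3 lowest for these 3 genes. Summed over 23 choroid plexus genes, the level was 695, 3070.5 and 185 in the VZ libraries, against 79.9 to 109 in ISVZ, 77.0 to 83.8 in OSVZ and 66.2 to 95.6 in CP. TTR made up most of this sum in VZ 1 and VZ 2, but not in VZ 3. Among the VZ libraries all 23 genes were highest in VZ 2. Of them 17 were higher in VZ 1 than in VZ 3, and 6 were higher in VZ 3. Results are therefore also given without VZ 2, and with VZ 3 alone standing for VZ. The part of choroid plexus tissue in the results was not tested.

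In VZ, many axonemal genes stood above the rest of the wall, and none was called lower. In 28 of the 71 genes all 3 VZ libraries lay above all 9 others, against 4.98% of the 41048 genes with any value. In a fit of all 41048 genes, 34 of the 71 were higher in VZ than in the mean of the other layers, where 8.13% of all genes were, and 0 were lower, where 4.62% were; a gene was called at a limma adjusted p under 0.05. At an unadjusted p under 0.05 the limma fit had 52 higher and 2 lower. The share of all genes at the unadjusted threshold is not given, here or below, so such counts have no background. Without VZ 2 the fit called 24 higher, against a background of 6.18%, and with VZ 3 alone 37, against 7.87%; in that last fit the lone VZ library is assumed to vary like the others. VZ 1 and VZ 3 by themselves also lay above all 9 other libraries in 28 genes, with 6.46% of all genes doing so, and VZ 3 alone in 51, with 15.9%. In bulk tissue, fewer cells of a type and less RNA per cell cannot be told apart.

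**Figure D1:**
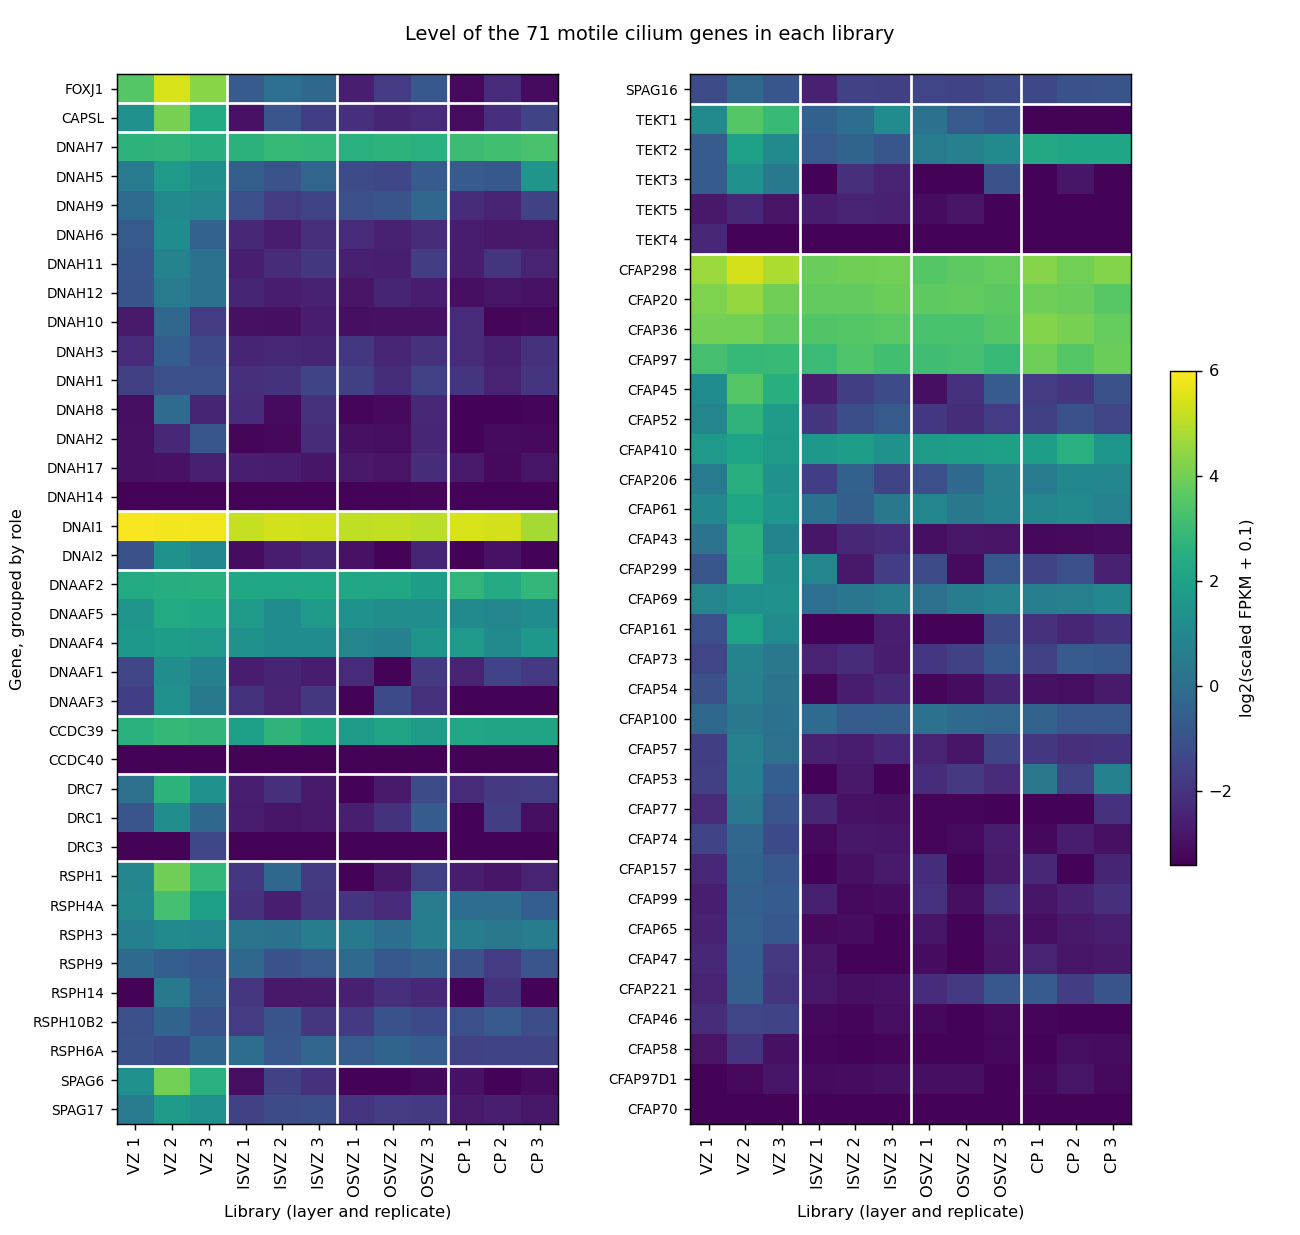
Level of each of the 71 axonemal genes (rows, grouped by role) in each of the 12 libraries (columns, VZ, ISVZ, OSVZ, CP), as log2 of scaled FPKM + 0.1, with higher levels brighter. FOXJ1, SPAG6, RSPH1 and CAPSL are brightest in the VZ columns, whereas a few rows, such as DNAI1 and CFAP298, are bright in every layer.

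The deposited tables give lower and upper confidence bounds for each value. In 13 of the 71 genes the lower bound of every VZ library lay above the upper bound of every library outside VZ, which held for 1.41% of the 41048 genes. These were DNAI1, FOXJ1, CAPSL, SPAG6, CFAP45, CFAP52, DRC7, CFAP43, SPAG17, DNAH11, CFAP54, DNAH12 and CFAP74. They include a transcription factor, outer and inner arm dynein chains, central apparatus proteins and doublet proteins.

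The module is low outside VZ and uneven within it. At 1 FPKM or more, 26, 46 and 37 members were found in VZ 1, VZ 2 and VZ 3, against 12 to 15 in ISVZ, 14 to 17 in OSVZ and 16 to 18 in CP. Of the 71, 29 reached 1 FPKM in at least 3 libraries and were tested with the 14101 genes that did so; 42 did not, and 25 stayed below 1 in all 12 libraries. CCDC40, CFAP70 and DNAH14 did not exceed 0.00535 FPKM in any library. Of the other 68, the highest layer mean was in VZ for 55, in CP for 9 (CFAP36, CFAP97, DNAH7, DNAAF2, CFAP410, TEKT2, CFAP53, CFAP221 and CFAP97D1), in ISVZ for RSPH6A and TEKT5, and in OSVZ for RSPH9 and DNAH17.

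Among the 29 tested genes, 21 were higher in VZ than in the mean of the other layers, 0 were lower and 8 were not called, with 22.4% of all tested genes called higher and 16.5% lower; at an unadjusted p under 0.05 the limma fit had 23 higher and 1 lower. Without VZ 2, 14 were called higher, and with VZ 3 alone 12, against backgrounds of 17.1% and 11.9%. Of the 29, 8 (FOXJ1, RSPH1, CAPSL, SPAG6, CFAP45, CFAP52, CFAP43 and SPAG17) passed the filter through VZ libraries only and so had to differ; of the 21 that reached 1 FPKM in a library outside VZ, 13 were higher. The F test over the 4 layers called 25 of the 29, where it called 51.8% of tested genes. It called 17 of the 21. The median difference was 0.45 on the log2 scale for the 71, against 0.00 for all 41048 genes. All log2 differences are of scaled FPKM + 1, VZ minus the mean of the other layers unless another pair is named, and understate the change of genes at low levels.

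**Figure D2:**
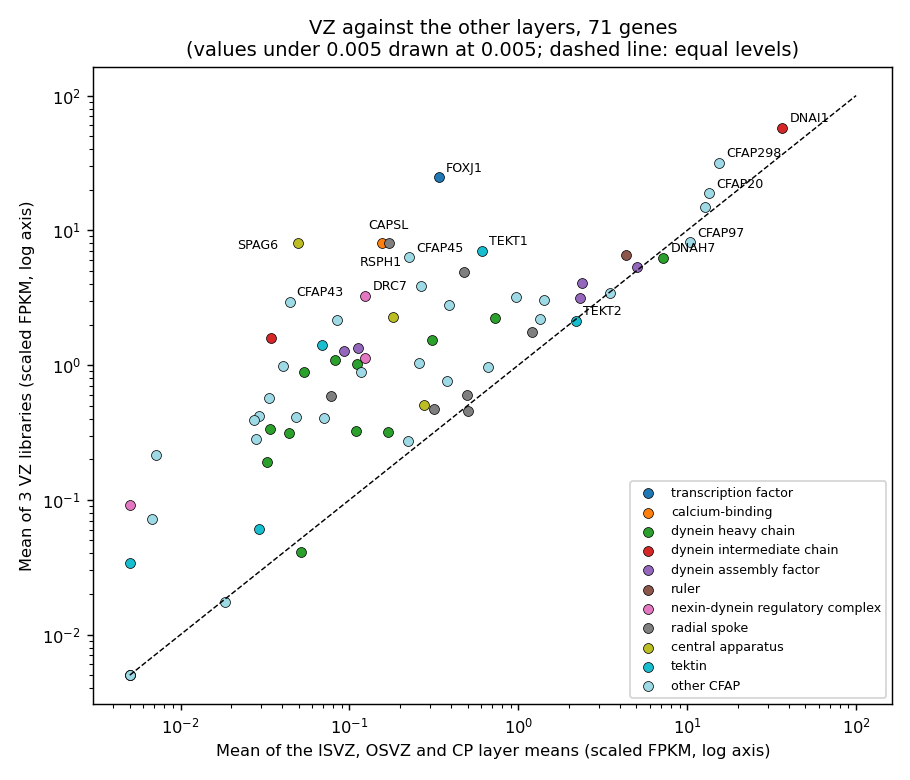
Mean of the 3 VZ libraries (vertical axis) against the mean of the ISVZ, OSVZ and CP layer means (horizontal axis), both in scaled FPKM on log axes, for 71 genes coloured by role. FOXJ1, SPAG6, CAPSL, RSPH1 and CFAP43 lie far above the dashed line of equal levels, while TEKT2 and DNAAF2 lie near it and CFAP97 and DNAH7 just below it.

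FOXJ1, the transcriptional activator of the module, had the largest difference on the log2(FPKM + 1) scale. It measured 11.3, 43.4 and 19.96 FPKM in the VZ libraries, against 0.517, 0.924 and 0.763 in ISVZ, 0.0618, 0.196 and 0.449 in OSVZ, and 0.0128, 0.113 and 0.0132 in CP. Every VZ library was over 10 FPKM and no other library reached 1, so VZ did not overlap with any layer; the ratio of the VZ mean to the mean of the other layers was 73.4, against 161 for SPAG6. The log2 difference was 4.11 ± 0.31 (SE; limma adjusted p = 0.000111 in the fit of all genes), 3.62 without VZ 2 and 4.01 with VZ 3 alone. The files place FOXJ1 at chr16:48091653-48097894 and no other annotated entry overlaps it; the genome build of these coordinates is not given in the sources used here.

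The dynein heavy chains are the motors themselves, and 13 of them were listed. DNAH9, an outer arm heavy chain, measured 0.826, 2.03 and 1.76 FPKM in VZ, against 0.200 to 0.367 in ISVZ, 0.365 to 0.720 in OSVZ and 0.0779 to 0.246 in CP. DNAH11, its paralog in the outer arm, measured 0.435, 1.66 and 0.986 in VZ and at most 0.207 in any library outside it. Together with DNAH6 and DNAH12, they form the 4 heavy chains whose VZ libraries lay above all others. The same 4 were called in the fit of all genes, with differences of 0.82 to 0.94 on the log2 scale. Of all 41048 genes, 4.98% had VZ above all others and 8.13% were called higher. The loci of DNAH9, DNAH11, DNAH6 and DNAH12 overlap ZNF18, CDCA7L, SUCLG1 and ARF4li1, in that order. Each of these entries had a mean of at least 5.36 FPKM over all 12 libraries. The part of shared reads in the 4 differences was not tested. DNAH5, also of the outer arm, measured 1.25, 3.10 and 2.32 in VZ, but CP 3 at 2.70 overlapped VZ while CP 1 and CP 2 were at 0.515 and 0.465. Among the tested genes it was called higher in VZ (0.94 ± 0.27, adjusted p = 0.0162), but not in the fit of all genes, nor without VZ 2 (0.75, adjusted p = 0.0982) or VZ 3 (0.90, adjusted p = 0.0626). DNAH7, an inner arm heavy chain and the most abundant of them, measured 6.34, 6.64 and 5.74 in VZ and 8.07, 8.76 and 9.82 in CP. Its VZ difference of -0.17 ± 0.09 was not called. SLC39A10, whose locus overlaps it, averaged 14.7 in VZ, 15.6 in ISVZ, 14.7 in OSVZ and 19.6 in CP. Of the other 7, DNAH1, DNAH2, DNAH3, DNAH8, DNAH10 and DNAH17 had layer means of at most 0.338 FPKM, and DNAH14 was near 0.

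The intermediate chains DNAI1 and DNAI2 sit at the base of the outer dynein arm, which needs both, yet their levels were far apart. DNAI1, at chr2:124456032-124531222, was the most abundant of the 71 genes, with 60.5, 57.3 and 55.5 FPKM in VZ, 35.9 to 40.7 in ISVZ, 32.6 to 35.1 in OSVZ and 26.2 to 43.2 in CP. All 3 VZ libraries were above the other 9, with a difference of 0.66 ± 0.13 (adjusted p = 0.00193), or 0.60 with VZ 3 alone (adjusted p = 0.1002). Its locus overlaps that of ENHO, the adropin gene, which measured 322 ± 64.5 FPKM in VZ, against 215 ± 20.4 in ISVZ, 233 ± 34.1 in OSVZ and 265 ± 55.2 in CP (SD, n = 3 each; log2 difference 0.44 ± 0.15, adjusted p = 0.0413). The labels do not state that counting used strand, and reads of overlapping genes may then be shared. DNAI2, which overlaps no entry, measured 0.373, 2.51 and 1.88 in VZ and at most 0.0883 in any other library; its difference in the fit of all genes was 1.22 ± 0.23 (adjusted p = 0.00692).

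Dynein assembly factors differed in how widely they were expressed. DNAAF2, DNAAF4 and DNAAF5 were above 1 FPKM in all 12 libraries. DNAAF5 measured 2.73, 4.93 and 4.62 FPKM in VZ and 1.82 to 3.13 elsewhere, and was higher in VZ (0.58 ± 0.15, adjusted p = 0.00857), although VZ 1 lay inside the range of the other layers; the call was lost without VZ 2 (0.45, adjusted p = 0.0623) or VZ 3 (0.49, adjusted p = 0.0541). DNAAF4 (0.34 ± 0.13, adjusted p = 0.0605) and DNAAF2 (0.09 ± 0.11, adjusted p = 0.533) were not called, although DNAAF4 was without OSVZ 3 (0.40, adjusted p = 0.0175). DNAAF1 and DNAAF3, both low, measured 0.271, 2.20 and 1.54 and 0.218, 2.39 and 1.21 in VZ, with at most 0.253 and 0.307 outside it. VZ 1 was thus barely above the other layers for DNAAF1, and below OSVZ 2 for DNAAF3. Both were called higher in the fit of all genes, by 0.97 and 0.94. The loci of DNAAF1 and DNAAF3 overlap HSDL1 and TNNT1, with means of 17.9 and 8.01 FPKM over all 12 libraries. Those of DNAAF2 and DNAAF4 overlap ARF6-AS-1 and PIGB-AS-1, with means of 14.7 and 12.9.

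CCDC39 and CCDC40 form the molecular ruler that sets the spacing of spokes and inner arms along the doublet. CCDC39 measured 5.99, 7.12 and 6.59 FPKM in VZ, against 3.62, 6.51 and 4.89 in ISVZ, 3.29 to 4.20 in OSVZ and 4.20 to 4.62 in CP. It was higher in VZ than in the other layers together (0.52 ± 0.13, adjusted p = 0.00839), with ISVZ 2 above VZ 1, but not called with VZ 3 alone (0.53, adjusted p = 0.144). Its locus overlaps TTC14, which was at 20.1 ± 1.64 FPKM in VZ and 17.1 to 22.3 in the means of the other layers (log2 difference 0.07 ± 0.11). CCDC40 was at or near 0 in every library, but the li entry CCDC40li1, which overlaps it, measured 1.97, 4.63 and 3.71 in VZ and 0.895 to 2.25 elsewhere.

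Radial spoke genes gave some of the strongest contrasts. RSPH1, a spoke-head protein, measured 1.84, 15.5 and 6.92 FPKM in VZ, against 0.163, 0.736 and 0.189 in ISVZ and at most 0.228 in OSVZ and CP. RSPH4A, another head component, measured 1.91, 9.09 and 3.63 in VZ, against 0.0631 to 0.167 in ISVZ, 0.105 to 1.34 in OSVZ and 0.557 to 0.893 in CP. Neither overlapped with the other layers, and the differences were 2.64 ± 0.42 (adjusted p = 0.00284 in the fit of all genes, since RSPH1 passed the filter through VZ only) and 1.86 ± 0.32 (adjusted p = 0.000884). Without VZ 2 they were 2.04 and 1.37. RSPH3, a stalk protein, was expressed more evenly, at 1.47, 1.97 and 1.87 in VZ and 0.888 to 1.39 elsewhere; it was called among the tested genes (0.33 ± 0.11, adjusted p = 0.0390) but not in the fit of all genes, and leaving out any of 8 single libraries ended the call (adjusted p = 0.0517 to 0.156). RSPH9, RSPH14, RSPH10B2 and RSPH6A stayed under 0.7 FPKM in every layer mean and were not called. For RSPH9 the overlapping li entry RSPH9li1 was higher, with a VZ mean of 4.59 against 0.602 for the plain RSPH9 entry.

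SPAG6, SPAG17 and SPAG16 belong to the central apparatus, the pair of central microtubules and their projections. SPAG6 measured 2.38, 15.9 and 5.79 FPKM in VZ, against 0.0207, 0.238 and 0.138 in ISVZ; OSVZ and CP did not exceed 0.0287. The difference of 2.80 ± 0.37 (adjusted p = 0.00114 in the fit of all genes) was the second largest of the members, and was 2.19 without VZ 2. SPAG17 measured 1.27, 3.20 and 2.36 in VZ, 0.244 to 0.352 in ISVZ, 0.161 to 0.202 in OSVZ and 0.0457 to 0.0621 in CP, so the layers stood in the order VZ, ISVZ, OSVZ, CP without overlap between any neighbours. Of these neighbouring steps only VZ over ISVZ was called, in both fits (1.28 on the log2 scale). SPAG16, which builds the same structure, was low and not called, with 0.335, 0.724 and 0.446 in VZ and 0.0721 to 0.414 elsewhere.

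The nexin-dynein regulatory complex was represented by DRC1, DRC3 and DRC7, none of which passed the filter. DRC7 measured 0.953, 6.36 and 2.49 FPKM in VZ and at most 0.326 outside it, with a difference of 1.72 ± 0.31 in the fit of all genes (adjusted p = 0.00609). DRC1, at 0.434, 2.19 and 0.733 in VZ, was called as well (0.84 ± 0.22, adjusted p = 0.0331), but OSVZ 3 at 0.530 lay above VZ 1. The plain DRC3 entry had a value in VZ 3 only, while the overlapping li entry DRC3li1 measured 0.263, 2.19 and 1.57 in VZ and at most 0.322 elsewhere.

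**Figure D3:**
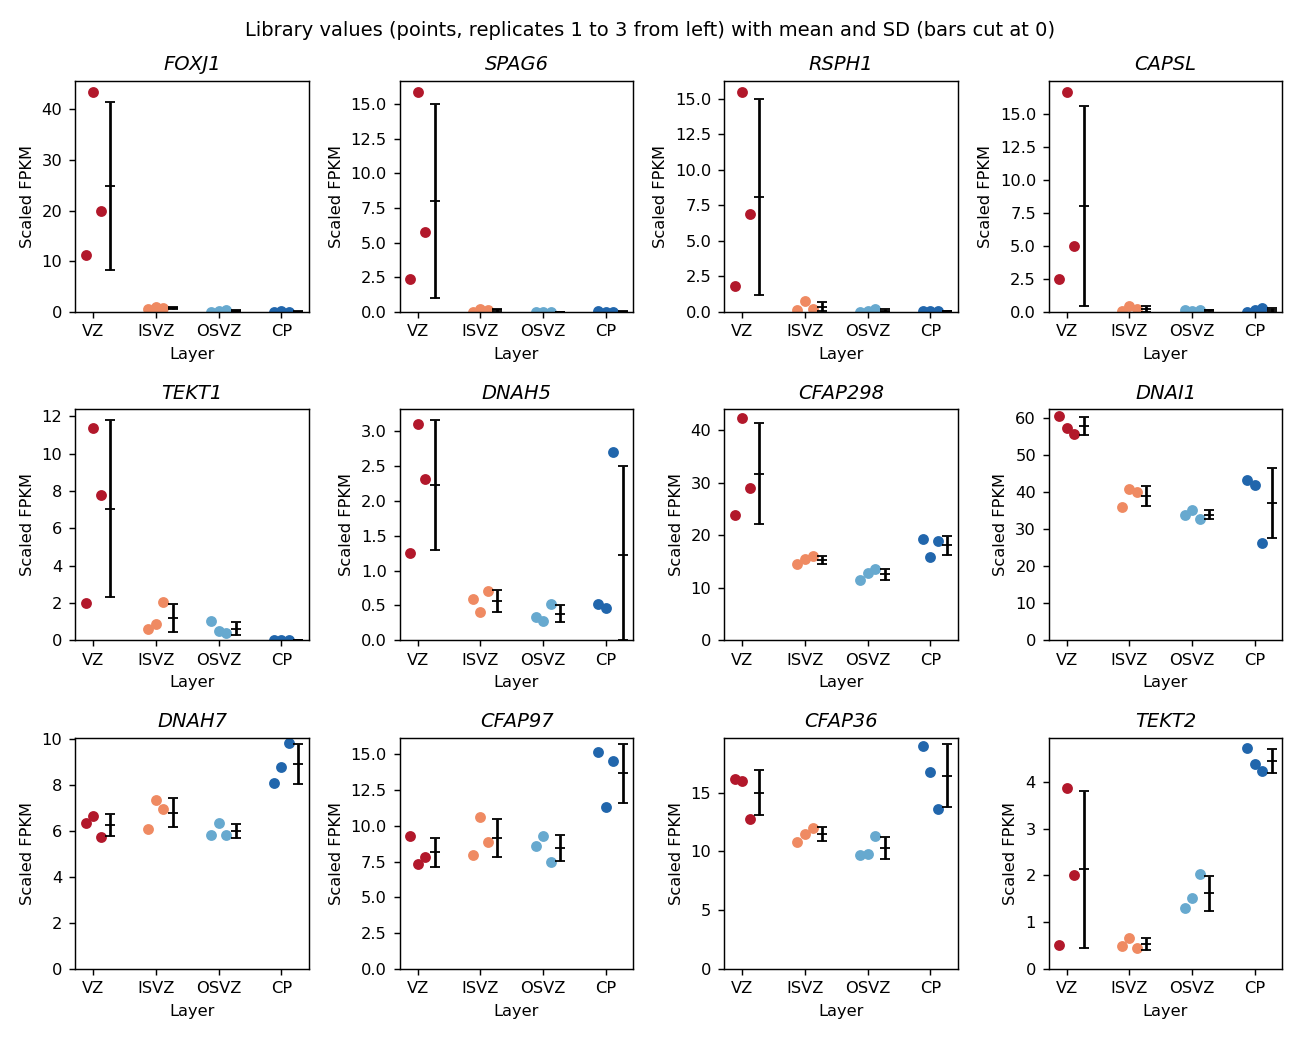
Scaled FPKM of 12 genes in each library, by layer: points are libraries, and bars the mean and SD of 3, cut at 0. FOXJ1, SPAG6, RSPH1 and CAPSL separate VZ from the other layers, DNAI1 is present throughout, and TEKT2 and DNAH7 are highest in CP.

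Tektins are filament proteins inside the doublet, and here they went different ways. TEKT1 measured 2.00, 11.4 and 7.81 FPKM in VZ, against 0.619, 0.895 and 2.08 in ISVZ and 1.01, 0.484 and 0.395 in OSVZ, and was listed at 0 in all 3 CP libraries. VZ 1 lay just below ISVZ 3, and the difference was 2.20 ± 0.35 (adjusted p = 0.000498). TEKT3 was at 0.525, 2.45 and 1.23 in VZ and at most 0.374 outside it. TEKT2 instead was at 4.72, 4.38 and 4.23 in CP, against 0.514, 3.87 and 2.00 in VZ, 0.441 to 0.667 in ISVZ and 1.30 to 2.03 in OSVZ, so CP was above every other library. Its VZ difference was 0.01 ± 0.26, and the OSVZ minus CP difference was -1.06 ± 0.32 (adjusted p = 0.0266), a call lost in the fit of all genes. TRAPPC3, whose locus overlaps that of TEKT2, was also highest in CP, at 36.1 FPKM against 22.0 in VZ, 21.5 in ISVZ and 24.4 in OSVZ. TEKT4 and TEKT5 had layer means of at most 0.0703 FPKM.

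CAPSL, a calcium-binding protein related to calcyphosine, measured 2.47, 16.6 and 4.99 FPKM in VZ and at most 0.433 in any other library (2.64 ± 0.39, adjusted p = 0.00193 in the fit of all genes; 1.99 without VZ 2). The remaining 29 members carry CFAP symbols and are a mixed set. Of 13 tested, 9 were higher in VZ, where 22.4% of all tested genes were. In 12 of the 29 all VZ libraries lay above the rest, where 4.98% of genes with any value did so. Among the 9, CFAP43, CFAP45 and CFAP52 passed the filter through VZ libraries only and so had to differ. CFAP45 and CFAP52, inner proteins of the doublet microtubules, measured 2.13, 11.3 and 5.46 and 1.80, 6.53 and 3.28 in VZ, with at most 0.519 and 0.505 in any other library. Their differences were 2.37 ± 0.33 (adjusted p = 0.00152) and 1.83 ± 0.24 (adjusted p = 0.0011) in the fit of all genes, and neither overlapped with the other layers. CFAP43, known from sperm flagella, measured 1.03, 6.12 and 1.71 in VZ and at most 0.117 elsewhere (1.70 ± 0.30, adjusted p = 0.00518 in the fit of all genes; 1.17 without VZ 2).

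Other CFAP genes were expressed in all 4 layers. CFAP298, which takes part in dynein arm assembly, measured 23.8, 42.4 and 29.0 FPKM in VZ, 14.5 to 16.1 in ISVZ, 11.5 to 13.6 in OSVZ and 15.9 to 19.3 in CP (0.98 ± 0.14, adjusted p = 0.000251). CFAP20, a doublet protein also found in primary cilia, was at 18.0, 23.0 and 15.5 in VZ and 11.8 to 14.9 elsewhere; it had a difference of 0.45 ± 0.11 (adjusted p = 0.00712), and 0.30 (adjusted p = 0.0508) without VZ 2. Both stood above all other libraries in VZ, though by far less than FOXJ1 or SPAG6. CFAP206, CFAP61, CFAP69 and CFAP299 were higher in VZ by 1.01, 0.72, 0.45 and 1.25, each with overlap between VZ and other libraries; CFAP206 (adjusted p = 0.0593) and CFAP299 (adjusted p = 0.102) were not called in the fit of all genes, nor CFAP61 with VZ 3 alone (adjusted p = 0.0549). For CFAP299 the call rested on VZ 2 (5.55 FPKM, against 0.436 and 2.33 in VZ 1 and VZ 3, and 1.76 in ISVZ 1): the difference was 0.72 without it (adjusted p = 0.179), and the call was also lost without VZ 3 (1.21, adjusted p = 0.0862). CFAP206 lost its call without VZ 2 (0.60, adjusted p = 0.0924), and CFAP69 without VZ 2 (0.41, adjusted p = 0.0735) or VZ 3 (0.39, adjusted p = 0.0826). CFAP36 (0.24 ± 0.11), CFAP97 (-0.29 ± 0.12), CFAP410 (0.00 ± 0.16) and CFAP53 (0.37 ± 0.24) were not called; CFAP36 became higher without VZ 3 (0.35, adjusted p = 0.0483), and CFAP97 lower without VZ 1 (-0.38, adjusted p = 0.0496) or CP 2 (-0.33, adjusted p = 0.0338). Below the filter, CFAP161, CFAP54, CFAP57, CFAP74, CFAP157, CFAP65 and CFAP46 were called higher in the fit of all genes, by 0.27 to 1.35.

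Between neighbouring layers, most calls of members were of VZ over ISVZ. VZ was higher than ISVZ in 13 of the 71 genes in the fit of all genes, with 1.68% of all genes called so. Among the 29 tested it was higher in 14 (9 without ISVZ 2), with 7.18% called so, and in 6 of the 21 that reached 1 FPKM outside VZ; in none was it lower, with 1.54% and 0.236% called lower, and none was lower at an unadjusted p under 0.05 in either limma fit. The 6 were RSPH4A (2.20 on the log2 scale), TEKT1 (1.70), CFAP206 (1.48), CFAP61 (1.04), CFAP298 (0.96) and CFAP69 (0.59). FOXJ1 (3.70), SPAG6 (2.69), CAPSL (2.56), RSPH1 (2.42) and CFAP45 (2.39), which passed the filter through VZ only, had larger differences. No member was called between ISVZ and OSVZ by limma. Of tested genes 0.121% were called higher in ISVZ and 0.482% lower (0.00244% and 0.0171% in the fit of all genes), so 0 members is near the background. At an unadjusted limma p under 0.05, 0 of the 29 were higher and 1 lower. OSVZ was lower than CP in 5 of the 29, CFAP36, CFAP97, DNAH7, DNAAF2 and TEKT2, by 0.47 to 1.06 (3 without CP 1); as 13.7% of all tested genes were called so, this share is near the background. In the fit of all genes 4 of the 71 were lower, with 3.53% of all genes called so. None was higher in OSVZ than in CP in either limma fit, with 17.3% and 4.75% called so; at an unadjusted p under 0.05, 0 of the 29 and 1 of the 71 were higher.

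The 3 VZ libraries were not alike, and the module ranked them in a fixed way. Of the 28 genes with VZ above all other libraries, 27 were highest in VZ 2, 25 lowest in VZ 1, and 25 had the order VZ 2, VZ 3, VZ 1 from high to low; DNAI1, CFAP20 and CFAP58 did not. Of the 2043 genes with VZ above all others, tested or not, 39.5% had that order. The median ratio of VZ 2 to VZ 1 was 4.37, between 0.948 for DNAI1 and 11.1, and the median ratio of VZ 3 to VZ 1 was 2.08. Of the 23 choroid plexus genes, 17 were higher in VZ 1 than in VZ 3, TTR, CLIC6, FOLR1, SLC13A4, AQP1 and MSX1 among them, and 6 were higher in VZ 3. Of the 6 with VZ above all other libraries, 4 had the order VZ 2, VZ 1, VZ 3 and 2 that of the axonemal genes. OTX2, a transcription factor of the choroid plexus and its precursors, was among these 2, at 4.10, 26.99 and 6.76 FPKM.

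**Figure D4:**
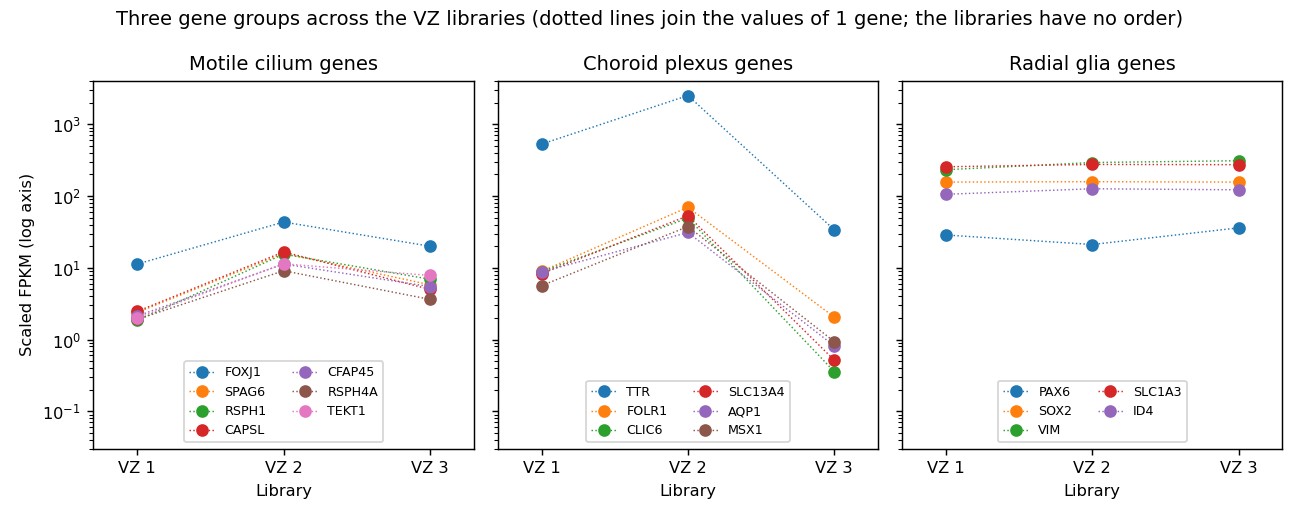
Scaled FPKM (log axis) in VZ 1, VZ 2 and VZ 3 of 7 axonemal genes, 6 choroid plexus genes and 5 radial glia genes; dotted lines join the values of 1 gene and the libraries have no order. Axonemal genes such as FOXJ1 are higher in VZ 3 than in VZ 1. The 6 choroid plexus genes drawn, TTR, CLIC6 and FOLR1 among them, are lower in VZ 3. Of the 23 listed, 6 are higher in VZ 3, OTX2 among them, and are not drawn. Of the radial glia genes, SOX2 (156, 158 and 156 FPKM) is nearly level and PAX6 (28.6, 21.1 and 36.0) varies more.

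The upstream regulators of multiciliated cells, the cells that grow many motile cilia, were examined as a list of 25 genes. Of 16 tested, 12 were higher in VZ, 0 were lower and 4 were not called. The median was 0.83 on the log2 scale, against 0.03 for all tested genes, of which 22.4% were higher. Of the 12, CCNO and GMNC reached 1 FPKM in VZ libraries only and so had to differ. In the fit of all genes 13 of the 24 with any value were higher, where 8.13% of all genes were. CCNO, a cyclin-family protein needed for centriole amplification, measured 1.24, 4.97 and 2.98 FPKM in VZ and means of 0.0146 to 0.0258 in the other layers (1.88 ± 0.23). RFX4 and E2F5, transcription factors of ciliary genes and of the multicilin pathway, were higher in VZ by 1.60 and 1.14, and FOXN4 by 1.51. FOXN4 averaged 9.36 FPKM in VZ, 7.06 in ISVZ, 4.87 in OSVZ and 0.0527 in CP. Its VZ minus ISVZ difference of 0.42 was not called (limma adjusted p = 0.392). Nor were GMNC, MYB, CEP152, CEP63, PLK4 and RFX5 called over ISVZ alone, while CCNO, RFX2, RFX4, E2F5 and STK36 were. RFX3, an activator of ciliary genes, was not called (0.14 ± 0.10), with 9.48 ± 0.54 FPKM in VZ, 7.36 in ISVZ, 6.42 in OSVZ and 13.0 in CP. RFX7 was not called either (0.07 ± 0.15). MCIDAS, the multicilin gene that starts the programme with GMNC, was below the filter, at 0.367, 1.08 and 0.426 in VZ and at most 0.0354 in any other library.

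Other genes of motile cilia, which the name rule did not cover, were also mostly higher in VZ. Of 97 found, 45 were tested: 36 were higher in VZ, 1 (MOK, a ciliary kinase) was lower and 8 were not called, with a median of 0.95 and the same background of 22.4%. Some of the 45, WDR38 and ROPN1L among them, reached 1 FPKM in VZ libraries only and so had to differ. The number of such genes is not given. FAM183A measured 2.58, 21.6 and 8.35 FPKM in VZ, and WDR38, TPPP3 and DAW1, a dynein assembly protein, were higher by 2.15, 2.10 and 2.01. In the fit of all genes, 61 of the 95 with any value were higher and 2 lower, with 8.13% and 4.62% of all genes so called. DNER (-0.43 ± 0.22) and NME7 (0.24 ± 0.14) were not called.

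Genes of intraflagellar transport and the primary cilium, are shared by motile and immotile cilia: 28 of 68 tested were higher in VZ, 3 (the kinesin subunits KIF3A, KIF3B and KIF3C) were lower and 37 were not called, with a median of 0.28; of all tested genes 22.4% were higher and 16.5% lower. BBS7 measured 14.4 ± 1.92 FPKM in VZ, 11.6 in ISVZ, 6.95 in OSVZ and 1.04 in CP (1.40 ± 0.17), and TTC8, BBS2 and DYNC2H1 were higher by 1.23, 1.11 and 1.05. KIFAP3 (-0.34 ± 0.14) and PCM1 (0.16 ± 0.10) were not called. No test of the difference between this list and the axonemal genes was made.

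Markers of cell types that could lie in or beside VZ are given as measured; 22.4% of all tested genes were higher in VZ and 16.5% lower. All 8 tested genes of an ependymal list, with the member DNAH12 left out, were higher in VZ. This list shares VIM and PROM1 with the radial glia list, so it is not specific to ependyma. S100B, a calcium-binding protein of glia and ependyma, measured 98.0, 142 and 158 FPKM in VZ. Its means were 33.7 in ISVZ, 16.9 in OSVZ and 0.0522 in CP. CD9, GJA1 and PLTP were higher by 3.61, 3.35 and 3.18. Of 10 tested choroid plexus genes 6 were higher, with TTR at 6.50 ± 1.28, FOLR1 at 3.43, OTX2 at 2.96 and ENPP2 at 2.85, while SLC4A10 and SOSTDC1 were not called. Of a cortical hem and dorsal midline list, the tissue beside the choroid plexus, 2 of 4 tested were higher (BMP4 by 1.66 and BMP7 by 1.01) and DKK3 and RSPO3 were not called. BMP4 and BMP7 reached 1 FPKM in VZ libraries only and so had to differ. Of 5 tested meningeal genes, OGN (1.48) and COL1A2 (0.65) were higher and LUM and COL3A1 were not called among the other 3. Radial glial genes rose by 2.80 for VIM, 2.77 for ID4, 2.67 for SLC1A3 and 2.35 for SOX2; of the neuronal genes SYT4, GAP43 and BHLHE22 fell by 3.54, 2.75 and 2.52, and BCL11B was not called. The part of each of these cell types in the axonemal differences was not tested.

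Annotated overlap limits some of these values. The loci of 63 of the 71 genes overlap another annotated entry, and those of 45 overlap an entry with a higher mean level, among them 10 of the 28 genes with VZ above all other libraries. Called members among the 45 include SPAG17 (with WDR3, mean 13.2 FPKM), CFAP206 (SLC35A1, 22.8) and CFAP61 (CRNKL1, 16.6). The 8 free of any overlap were FOXJ1, CFAP20, CFAP45, TEKT1, DNAI2, DRC7, CFAP161 and TEKT4. Of these, all but TEKT1 and TEKT4 stood above the 9 other libraries in every VZ library.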

How the data were processed

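Per the labels' protocols, VZ, ISVZ, OSVZ and CP were laser-captured from Nissl-stained cryosections of fetal cortex, and poly(A) RNA libraries were made; per the submitters' processing notes, HISAT2 and Cufflinks were used. For tool versions, build, annotation and strandedness, nothing is stated in what was used here. Each library came as a deposited table of FPKM per gene, with lower and upper bounds, for 81792 entries; the table names carry another embryonic day than the labels, which were followed. Read depth is not stated, and the relative depth given above is an estimate from the confidence bounds. Entries of 1 gene ID were summed (360 IDs) and 4 IDs with a failed status, none a member, were left out.

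FPKM were scaled by median-of-ratios factors over 10200 genes (0.947 to 1.06). Log2 of scaled FPKM + 1 was fitted with limma 3.58.1 (R 4.3.3; trended variances, 8 residual degrees of freedom) over genes that reached 1 in 3 or more libraries, with Benjamini-Hochberg adjustment over 14101 genes and a threshold of 0.05. The fit was tested on simulated data. Alternatives were the scaling, pseudocount, filter, variance trend, a replicate block and leaving out libraries. The members and gene lists were chosen with earlier results of these data known. Named genes were set by rule: FOXJ1, SPAG6, SPAG16, SPAG17, CCDC39, CCDC40 and CAPSL, the 3 highest of each role, the 10 largest and 10 smallest VZ differences, up to 4 called and 2 uncalled genes of each list, and the layer checks; a further gene named in the text was chosen after its values were seen. No 2 libraries held identical values. A gene that the rule would name is not reported here.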

Additional observations from a re-analysis of the deposited data

How the results depend on the processing

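With 3 libraries a layer, only differences well over the spread between libraries could be called, and FPKM without counts give no detection floor. Of the recomputed single-gene differences, 605 kept their direction and call, 51 lost the call, 5 gained it and 15 changed sign. RSPH3 lost its call in 13 settings, CFAP299, DNAH5 and CFAP69 in 6 each. The count of members higher in VZ, 21, became 34 without a filter, 35 at a filter of 0.25, 5 at a filter of 5 and 12 with VZ 3 alone; the filter sets how many members are tested. VZ over ISVZ gave 26 at 0.25 and 2 at 5, against 14, and the F test 38 and 9, against 25. The shares of all genes called at the filters of 0.25 and 5 are not given, so the member counts there have no background. A pseudocount of 0.1 gave 1 member higher in OSVZ than in CP. Without a filter and with VZ 3 alone (chosen after seeing the data) the F test gave 39 and VZ over ISVZ and over the mean of the others 37 each. Leaving out each library in turn gave 14 (without VZ 2) to 22 members higher in VZ, 0 to 1 lower, 9 (without ISVZ 2) to 18 higher in VZ than in ISVZ, 3 (without CP 1) to 7 lower in OSVZ than in CP, 19 to 25 in the F test and 6388 to 7333 genes of all in the F test. 2 uncalled genes changed sign: CFAP410 was at -0.12 under quantile normalisation, -0.091 without VZ 2 and -0.081 with VZ 3 alone (each with or without a filter), and TEKT2 at -0.10 under quantile normalisation and -0.39 without VZ 2, with or without a filter. Leaving out each library gave -0.091 to 0.081 for CFAP410 and -0.39 to 0.46 for TEKT2; the cause was not tested. With a replicate block, 21 members were higher in VZ, 15 higher than in ISVZ, 24 were called by the F test and 5 were lower in OSVZ than in CP. Of 18 same-numbered pairs across layers, 16 correlated above 0.1 (0.0630 to 0.425). Their median was 0.198, against -0.129 for pairs of other numbers, and all 12 libraries were on average closest to their own number. This is a hint of pairing from the data, not the design. The labels do not say that the numbers pair the samples, so the main fit had no replicate block. Motif shares in promoters were planned and not run.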

Other observations

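Genes outside the module were ranked by the correlation of their log2 level with that of FOXJ1 over the 12 libraries, among 12365 tested genes with a symbol. As the 3 VZ libraries stand apart from the other 9, no pooled coefficient is given; the ranking is a description. The 10 closest were ZNF474, MYLK3, LRRC9, CLDN19, RIPOR3, PLTP, COL4A6, PLSCR1, MAP3K19 and ADHFE1. MAP3K19 measured 1.99, 7.58 and 2.52 FPKM in VZ and at most 0.221 in any other library, and LRRC9 1.37, 3.91 and 2.77 in VZ and at most 0.410 elsewhere. PLTP, a phospholipid transfer protein, was the most abundant of them, at 26.2, 106 and 34.4 FPKM in VZ and 2.76 to 8.30 elsewhere. Of the choroid plexus genes, OTX2 stood at rank 41, FOLR1 at rank 357 and TTR at rank 656.

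Several li entries held more signal than the entry under the plain symbol. CCDC40li1, DRC3li1, RSPH9li1, DNAH17li1 and CFAP157li1 overlap the locus of the plain entry. Whether the entries of such a locus are separate genes was not tested, so a low plain entry need not mean a silent gene. CCDC40li1 had a log2 difference of 0.84 between VZ and the mean of the other layers (adjusted p = 0.0209, limma over all genes with any value), while CCDC40 itself was near 0. DRC3li1 averaged 1.34 FPKM in VZ, against 0.1501 in ISVZ, 0.189 in OSVZ and 0.190 in CP, while DRC3 averaged 0.0920 in VZ and was listed at 0 elsewhere. RSPH9li1 averaged 4.59 in VZ, 2.40 in ISVZ, 3.14 in OSVZ and 4.68 in CP, a difference of 0.38 (adjusted p = 0.0178), and RSPH9 at most 0.617 in any layer. DNAH17li1 averaged 0.302 in VZ, against 0.0410 for DNAH17, and CFAP157li1 exceeded CFAP157 in the means of ISVZ, OSVZ and CP but not of VZ.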
